A study of Mus musculus with 12 samples.

Results

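The nuclear-encoded genes of oxidative phosphorylation were examined in MC38, a cell line of mouse colon carcinoma, after exposure to the MEK inhibitor (MEKi) GDC-0623. A gene was included if its symbol started with Nduf, Uqcr or Atp5, if it was Sdha, Sdhb, Sdhc or Sdhd, or if it started with Cox followed by 4, 5, 6, 7 or 8. This rule used no measured value and found 90 of the 18193 genes that could be named on the array, each represented by its brightest probe set with a single gene symbol. They comprised 34 subunits of complex I, 4 of complex II, 8 of complex III, 10 of complex IV and 17 of complex V, together 73 genes, and further 8 complex I assembly factors (Ndufaf1 to Ndufaf8), 8 isoforms known for restricted tissue use and the supercomplex factor Cox7a2l. Subunits encoded by mitochondrial DNA are outside the rule, and Cox7b was not analysed here.

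Oxidative phosphorylation couples the transfer of electrons from NADH and succinate to oxygen with the synthesis of ATP. Complexes I and II feed electrons into ubiquinone, complex III passes them to cytochrome c, complex IV reduces oxygen, and complex V uses the resulting proton gradient to make ATP. Most subunits are made in the cytosol, imported, and joined by assembly factors to the few subunits that mitochondria make themselves, so that the chain also depends on the import machinery and on mitochondrial ribosomes.

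The 12 arrays formed 4 groups of 3 biological replicates: cells in DMSO for 24 h, cells in 100 nM GDC-0623 for 24 h, cells in DMSO for 72 h and cells in 100 nM GDC-0623 for 72 h. The labels name 1 cell line, grown as a monolayer, with no genetic change between groups and with DMSO as the solvent control at both times. They do not say whether replicates were grown or hybridized on separate days, so the p-values measure the spread between these 3 pellets a group. Values are on a log2 scale that had been normalized by the authors with RMA, which gives no call of presence, and values of about 3 to 5 lie in the range of background. Levels of different genes are therefore not compared, since each probe set has its own brightness.

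The labels were checked first. Egr1, an immediate early gene downstream of MEK and ERK, fell by 4.90 (log2) at 24 h and by 5.57 at 72 h, and Dusp6, a phosphatase induced by ERK, fell by 2.12 and 1.49. Of the markers of epithelial cells, 0 of 6 (Epcam, Krt8, Krt18, Krt19, Cdh1 and Cldn3) had a mean of 6 or more, so that the epithelial origin of the line is not visible in these transcripts. The 5 leukocyte and 4 endothelial markers were likewise all under a mean of 6. The 4 fibroblast markers (Pdgfra, Col1a1, Col1a2 and Dcn) moved with the drug, with 2 of 4 higher at 24 h and 3 of 4 at 72 h, and their summed log2 level ran from 29.51 to 29.83 in 24 h DMSO, 31.66 to 31.97 in 24 h GDC-0623, 31.33 to 31.73 in 72 h DMSO and 36.15 to 37.28 in 72 h GDC-0623. The part of this shift in the results that follow was not tested, and in a bulk sample fewer cells of a type and less RNA per cell cannot be told apart.

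Most genes of the respiratory chain did not pass the test after MEKi. Of the 8 factors Ndufaf1 to Ndufaf8, 4 were lower at 24 h and 6 at 72 h, a contrast that was not tested. Leaving out any 1 array gave 2 to 4 and 4 to 6 of these factors lower. The means in 24 h DMSO were 8.834 for these factors and 11.486 for the 73 subunits of complexes I to V. Of 38 assembly factors outside the rule, with a mean of 8.679 there, 3 and 8 were lower. At 24 h, 2 of the 90 genes were higher and 8 lower (limma, Benjamini-Hochberg adjusted p under 0.05 over all probe sets), against 13.3% of all genes called higher and 8.23% called lower. Among 1543 bright genes (a mean of at least 10.24, the lower quartile of the 90), 17.4% were called higher and 14.8% lower. This set leaves out the members under 10.24, among them Ndufaf1 to Ndufaf8, Cox6a2 and Cox7c. It is therefore not a background for the calls of those genes. At 72 h, 2 genes were higher and 13 lower, against 13.8% higher and 12.4% lower over all genes and 18.7% and 23.5% among the bright genes. Of the 90 genes these counts are 2.22% higher at both times, and 8.89% and 14.44% lower.

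Across the 73 subunits of complexes I to V, 1 was higher and 2 lower at 24 h, and 2 were higher and 6 lower at 72 h. Over the 7 alternatives that kept all arrays, 1 to 4 were higher and 0 to 10 lower at 24 h. At 72 h these counts were 2 to 4 and 3 to 12. Median log2 differences over all genes were -0.03 at both times, and over the bright genes -0.02 at 24 h and -0.07 at 72 h. For the 73 subunits the median was -0.07 at 72 h and -0.02 at 24 h. At 24 h it was 0.13 when arrays were shifted by their hybridization controls, which raised the median of all genes by 0.151. That shift changed the sign of 36 of the 90 differences at 24 h, each of at most 0.15 in size and none of them called, so that the direction of small uncalled 24 h differences depends on this scaling. The 95% interval of the difference lay within 0.5 (log2) of no change for 71 of the 73 subunits at 24 h and for 66 at 72 h. Replicates were close, with a median SD of 0.035 in 24 h DMSO, 0.070 in 24 h GDC-0623, 0.046 in 72 h DMSO and 0.080 in 72 h GDC-0623. Over all genes these SDs were 0.075, 0.091, 0.081 and 0.106. Of all 90 genes, 7 were called at both times, each in the same direction, 3 at 24 h alone, 8 at 72 h alone and 72 at neither.

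**Figure D1:**
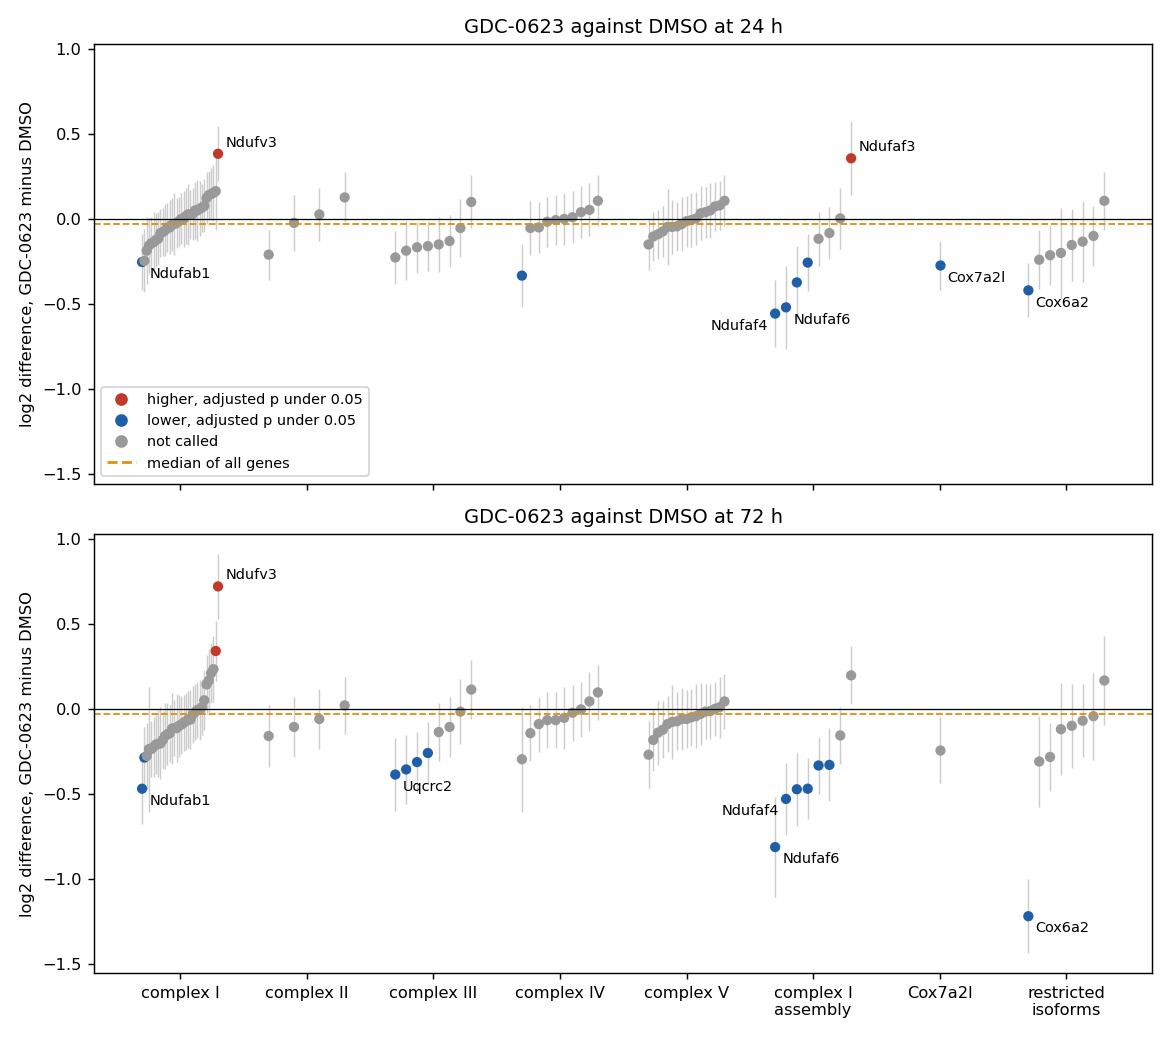
Log2 difference between GDC-0623 and DMSO for each of the 90 genes (vertical axis) by complex or class (horizontal axis), at 24 h (top) and 72 h (bottom). Points are genes, vertical lines their 95% intervals, red and blue points passed the adjusted p of 0.05, and the dashed line is the median of all genes. Complex V stays near 0 at both times. Of 8 complex I assembly factors 4 are lower at 24 h and 6 at 72 h. These counts are 2 to 4 and 4 to 6 when any 1 array is left out.

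Complex I, the NADH dehydrogenase, had 1 subunit higher and 1 lower at 24 h and 2 higher and 2 lower at 72 h, of 34 measured. These counts are 2.94% each at 24 h and 5.88% each at 72 h. Of all genes 13.3% were higher and 8.23% lower at 24 h, and 13.8% and 12.4% at 72 h. The subunit with the largest change was Ndufv3, an accessory subunit of the NADH-oxidizing module. It read 9.99, 9.98 and 9.97 in 24 h DMSO, 10.45, 10.26 and 10.38 in 24 h GDC-0623, 10.11, 10.07 and 10.16 in 72 h DMSO and 10.96, 10.73 and 10.81 in 72 h GDC-0623. Treated and control arrays did not overlap at either time, and the levels rose in all 6 treated arrays. The rise was 0.38 ± 0.07 (log2, SE, adjusted p = 0.0061) at 24 h and 0.72 ± 0.08 (adjusted p = 5.14e-04) at 72 h, which corresponds to 1.30-fold and 1.65-fold. The difference between the times, 0.34 ± 0.11, did not pass the test (adjusted p = 0.147). Both drug calls of Ndufv3 were kept under all 13 alternative analyses run for each time.

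Ndufab1, the mitochondrial acyl carrier protein and at the same time a subunit of complex I, moved in the opposite direction. Its values were 11.62, 11.63 and 11.59 in 24 h DMSO against 11.32, 11.28 and 11.48 in 24 h GDC-0623, and 11.67, 11.59 and 11.62 in 72 h DMSO against 10.98, 11.23 and 11.26 in 72 h GDC-0623. The groups were separate at both times, with a fall of 0.25 ± 0.07 at 24 h (adjusted p = 0.046) and of 0.47 ± 0.09 at 72 h (adjusted p = 0.0069). The call at 24 h was kept in 5 of 13 alternatives, and lost without any 1 of the 3 DMSO arrays or of replicates 1 and 2 of GDC-0623, with an adjusted p of up to 0.663 among the alternatives. A second, dimmer probe set of Ndufab1 fell by 0.33 and by 0.64.

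Ndufa3 and Ndufb3, small accessory subunits of the membrane arm, were called at 72 h in opposite directions. Ndufa3 read 11.54, 11.50 and 11.60 in DMSO and 11.96, 11.81 and 11.89 in GDC-0623 at 72 h, a rise of 0.34 ± 0.08 (adjusted p = 0.014) that its second bright probe set repeated with 0.34 and whose call was lost without replicate 2 of DMSO (adjusted p = 0.061). Ndufb3 read 10.32, 10.32 and 10.36 in DMSO and 9.95, 10.13 and 10.06 in GDC-0623, a fall of 0.29 ± 0.08 (adjusted p = 0.031) that held in 7 of 13 alternatives and was lost without any 1 of the DMSO arrays or without replicate 1 or 3 of GDC-0623. For the remaining 30 subunits of complex I no difference passed the test at 72 h, and 12 of the 34 had an unadjusted p under 0.05.

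The core subunits of the matrix arm of complex I described here, most of which carry its flavin or iron-sulfur clusters, were not called in either drug comparison, and their differences at 72 h all lay below 0. Ndufs1 read 10.21, 10.19 and 10.20 in 72 h DMSO and 9.90, 10.02 and 9.97 in 72 h GDC-0623, so that the groups were separate, but its difference of -0.24 (95% interval -0.40 to -0.07) narrowly missed the threshold (adjusted p = 0.051). For Ndufv2 the difference was -0.21 (adjusted p = 0.141), for Ndufs7 -0.18, for Ndufs8 -0.16, for Ndufv1 -0.15 and for Ndufs3 -0.03. At 24 h the same subunits differed by -0.16 (Ndufs1) to -0.02 (Ndufs8). Ndufa10, an accessory subunit of the membrane arm, was close to the threshold at 72 h (-0.28, adjusted p = 0.052). On the other side, Ndufa13, an accessory subunit also known as a partner of STAT3, differed by 0.15 and 0.21 without a call.

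Complex II, succinate dehydrogenase, which also takes part in the citric acid cycle, showed no called gene in either drug comparison, with 1 of 4 genes at an unadjusted p under 0.05 at 24 h and 0 at 72 h. The flavoprotein subunit Sdha differed by 0.03 (95% interval -0.13 to 0.18) at 24 h and by -0.06 (-0.23 to 0.11) at 72 h. For the iron-sulfur subunit Sdhb the differences were -0.02 and -0.11, and for the membrane anchor Sdhc they were 0.13 and 0.02. The other anchor, Sdhd, differed by -0.21 (adjusted p = 0.058, just over the threshold) and by -0.16. All 4 intervals lay within 0.5 of no change at both times.

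Complex III, the ubiquinol-cytochrome c reductase, was the complex whose subunits were most often called at 72 h, with 4 of 8 lower and 0 higher. Of all genes 12.4% were lower at 72 h, and of the bright genes 23.5%. At 24 h, 0 of 8 passed the adjusted threshold and 4 had an unadjusted p under 0.05, with a median difference of -0.16. Over the 7 alternatives that kept all arrays, 0 to 5 were lower at 24 h and 2 to 4 at 72 h. The 72 h median was -0.20. The mean over the 8 genes was 11.705, 11.688 and 11.715 in 24 h DMSO, 11.586, 11.528 and 11.629 in 24 h GDC-0623, 11.538, 11.540 and 11.612 in 72 h DMSO and 11.300, 11.409 and 11.433 in 72 h GDC-0623. Treated arrays lay under their controls at both times, by less at 24 h. When arrays were shifted by their hybridization controls the 24 h median came to -0.004.

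Uqcrc1 and Uqcrc2, the large core proteins on the matrix side of complex III, fell together at 72 h. Uqcrc1 read 11.60, 11.69 and 11.68 in DMSO against 11.14, 11.41 and 11.35 in GDC-0623, a difference of -0.36 ± 0.09 (adjusted p = 0.022). Uqcrc2 read 10.91, 10.96 and 11.02 against 10.40, 10.69 and 10.64, a difference of -0.39 ± 0.09 (adjusted p = 0.018). Replicate 1 of GDC-0623 was the lowest array for both genes. Uqcrfs1, the Rieske iron-sulfur protein, read 10.99, 11.00 and 11.05 against 10.60, 10.75 and 10.75 (-0.31 ± 0.08, adjusted p = 0.021). Uqcr10, a small subunit, fell by 0.26 ± 0.08 (adjusted p = 0.048), and its other 2 probe sets fell by 0.50 and 0.70. None of these 4 calls was stable when DMSO arrays were left out: without replicate 2 or without replicate 3 of 72 h DMSO, 0 of the 8 genes were called, and the medians were then -0.22 and -0.18. Without replicate 1 of 72 h GDC-0623, 3 were called. The subunits Uqcrb, Uqcrh and Uqcrq differed at 72 h by 0.11, -0.02 and -0.11.

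Complex IV, cytochrome c oxidase, had 1 of 10 genes called lower at 24 h and 0 at 72 h, where 0 also had an unadjusted p under 0.05. The called gene was Cox7c, whose brightest single-symbol probe set read 6.64, 6.49 and 6.62 in 24 h DMSO and 6.11, 6.33 and 6.31 in 24 h GDC-0623 (-0.33 ± 0.08, adjusted p = 0.023). This call was kept in 8 of 13 alternatives, with values from -0.40 to -0.18. It was lost without replicate 1 or 3 of DMSO, without replicate 1 of GDC-0623, with 1 fit over 12 arrays and with arrays shifted by their hybridization controls (adjusted p = 0.380). At 72 h the same probe set read 6.71, 7.16 and 6.90 against 6.77, 6.72 and 6.39, and the groups overlapped. The remaining 9 genes differed by at most 0.11 in either direction at 24 h and all had 95% intervals within 0.5 of no change at both times. The median over the complex was -0.003 at 24 h and -0.06 at 72 h.

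Complex V, the ATP synthase, had 0 of 17 genes called at either time, with 0 at an unadjusted p under 0.05 at 24 h and 1 at 72 h. Over the 7 alternatives that kept all arrays, 0 to 1 were lower at 24 h and 0 to 2 at 72 h. The differences ran from -0.15 to 0.11 at 24 h and from -0.27 to 0.04 at 72 h, and all 17 intervals lay within 0.5 of no change at both times. The gene with the lowest value was Atp5g1 at both times, which encodes the c subunit of the rotor together with Atp5g2 and Atp5g3. Atp5g1 differed by -0.15 and -0.27 (adjusted p = 0.175 and 0.058), Atp5g2 by 0.05 and -0.14, and Atp5g3 by -0.07 and -0.03. At 72 h Atp5g1 read 11.74, 11.70 and 11.73 in DMSO and 11.30, 11.53 and 11.53 in GDC-0623.

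**Figure D2:**
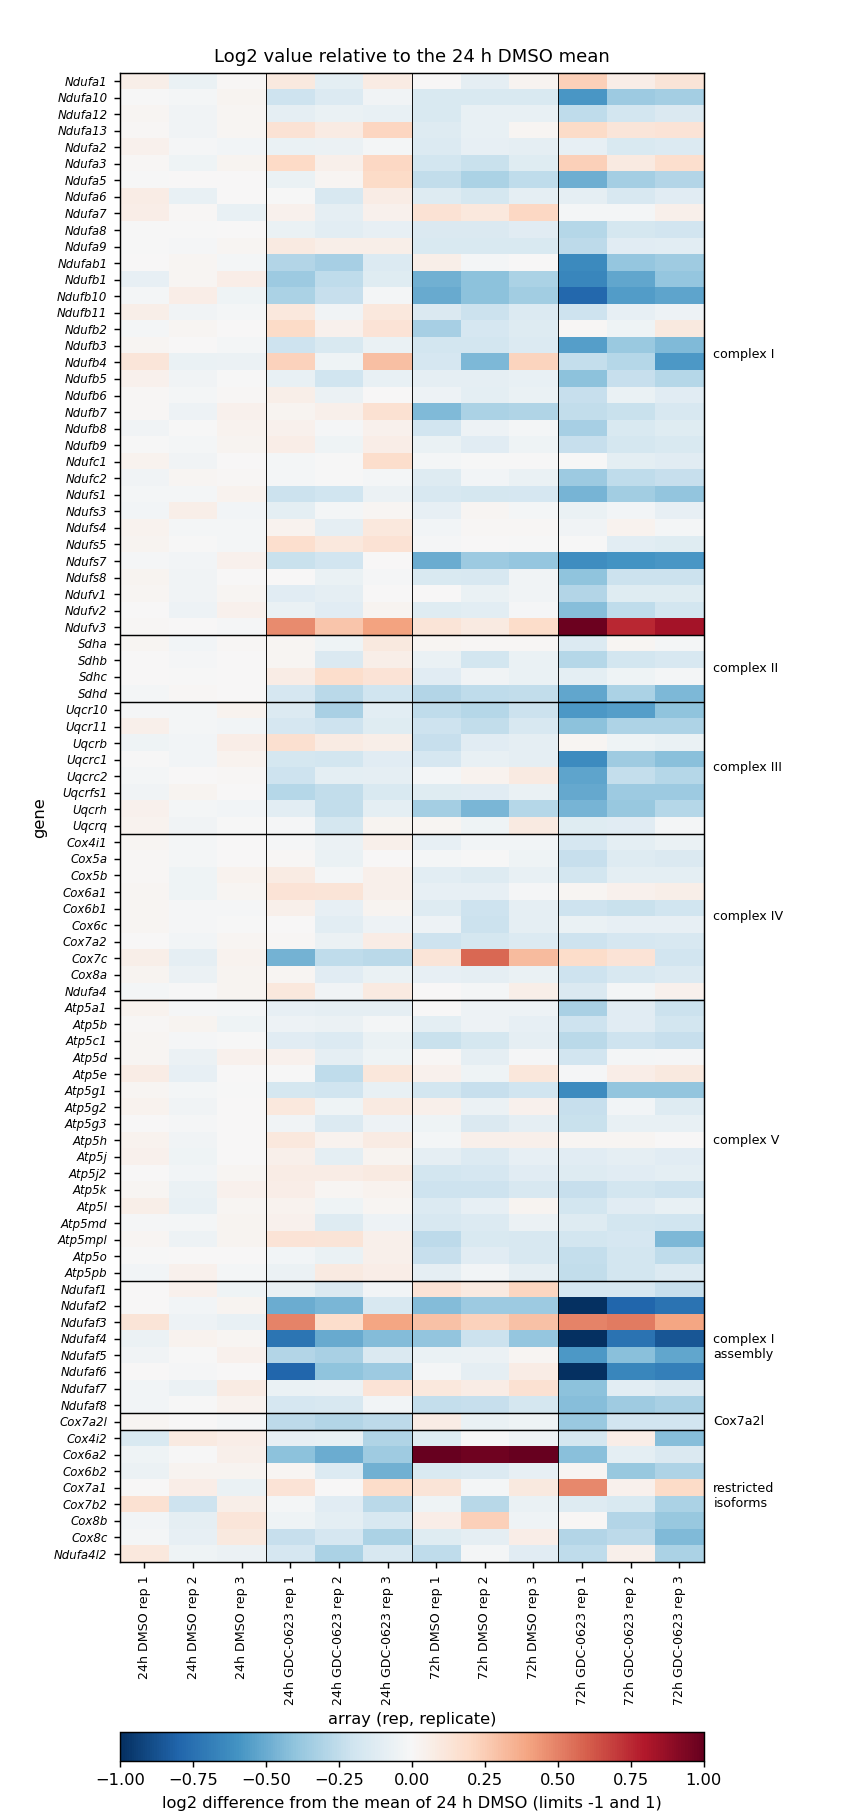
Log2 value of each of the 90 genes (rows, by complex or class) on each of the 12 arrays (columns), relative to the mean of the gene in 24 h DMSO; colours are limited at -1 and 1. The rows of Ndufv3, Cox6a2 and the assembly factors Ndufaf2, Ndufaf4 and Ndufaf6 stand out, and replicate 1 of 72 h GDC-0623 has the lowest mean over all 90 genes, 10.435.

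The map of all genes by array shows that replicate 1 of 72 h GDC-0623 was low for many of the 90 genes. Its mean over them was 10.435, against 10.510 and 10.490 for the other replicates and 10.577, 10.583 and 10.630 in 72 h DMSO. The means of 24 h DMSO (10.689, 10.658 and 10.689) and of 24 h GDC-0623 (10.627, 10.578 and 10.665) overlapped.

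The complex I assembly factors, which are not part of the finished enzyme, had the largest share of called genes at 72 h among the complexes and classes of the rule. Of all genes 8.23% were lower and 13.3% higher at 24 h, and 12.4% and 13.8% at 72 h. Of the 8 factors 4 were lower and 1 higher at 24 h, and 6 lower and 0 higher at 72 h. Their median differences were -0.19 and -0.40. Leaving out any 1 array gave 2 to 4 lower at 24 h, with 2 for each array but GDC-0623 replicate 3, and 4 to 6 lower at 72 h. The shift by hybridization controls gave 2 and 5 lower. Of 7 further complex I assembly factors whose symbols the rule does not take (Acad9, Ecsit, Foxred1, Nubpl, Timmdc1, Tmem126b and Tmem186), 0 were called at 24 h, and at 72 h Acad9 (-0.31) and Timmdc1 (-0.40) were lower and Tmem126b (0.60) was higher. The mean of Ndufaf1 to Ndufaf8 was 8.832, 8.823 and 8.846 in 24 h DMSO and 8.568, 8.599 and 8.755 in 24 h GDC-0623. At 72 h it was 8.756, 8.764 and 8.814 in DMSO and 8.301, 8.495 and 8.446 in GDC-0623. For this mean the treated arrays were separate from their controls at both times.

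Ndufaf6, which acts early in the biogenesis of complex I, fell most among them at 72 h. It read 9.01, 8.99 and 9.01 in 24 h DMSO, 8.21, 8.60 and 8.64 in 24 h GDC-0623, 8.98, 8.91 and 9.08 in 72 h DMSO and 7.86, 8.35 and 8.32 in 72 h GDC-0623. Replicate 1 was the lowest of the treated arrays at each time, and no treated array reached a control. The fall was 0.52 ± 0.11 (adjusted p = 0.011) at 24 h and 0.81 ± 0.13 (adjusted p = 0.0025) at 72 h, 1.76-fold at the later time. Ndufaf4, which binds early assembly intermediates together with Ndufaf3, read 9.89, 9.98 and 9.97 against 9.22, 9.44 and 9.51 at 24 h and 9.55, 9.73 and 9.56 against 8.95, 9.21 and 9.09 at 72 h. Its fall was 0.56 ± 0.09 (adjusted p = 0.0022) and 0.53 ± 0.09 (adjusted p = 0.0042), and a second probe set fell by 0.54 and 0.72. The calls of both genes were kept under all 13 alternatives at each time.

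Ndufaf3, the partner of Ndufaf4, moved the other way. It read 8.23, 8.05 and 8.03 in 24 h DMSO and 8.60, 8.28 and 8.50 in 24 h GDC-0623, a rise of 0.36 ± 0.10 (adjusted p = 0.034) that was kept in 8 of 13 alternatives and lost, among others, without replicate 2 or 3 of DMSO or replicate 1 or 3 of GDC-0623. At 72 h it differed by 0.20 (95% interval 0.03 to 0.37), which did not pass the adjusted threshold. Ndufaf2, a chaperone of late assembly, fell by 0.37 ± 0.09 (adjusted p = 0.025) and by 0.47 ± 0.09 (adjusted p = 0.0072). Ndufaf5, which modifies the core subunit Ndufs7, read 8.51, 8.52 and 8.60 in 72 h DMSO and 8.00, 8.16 and 8.06 in 72 h GDC-0623, and its differences were -0.26 ± 0.07 (adjusted p = 0.042) and -0.47 ± 0.08 (adjusted p = 0.0031). The 24 h calls of Ndufaf2 and Ndufaf5 were kept in 7 and 6 of 13 alternatives and were lost without any 1 of the DMSO arrays, while their 72 h calls were kept in all 13.

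Further factors were called at 72 h alone. Ndufaf1, a component of the membrane arm assembly complex, fell by 0.33 ± 0.07 (adjusted p = 0.013), and the methyltransferase Ndufaf7 fell by 0.33 ± 0.10 (adjusted p = 0.038). Ndufaf1 read 8.25, 8.21 and 8.33 in DMSO and 7.95, 7.95 and 7.89 in GDC-0623. Ndufaf7 read 8.49, 8.46 and 8.54 against 7.98, 8.28 and 8.24, with replicate 1 of GDC-0623 again the lowest. The call of Ndufaf7 was kept in 7 of 13 alternatives and lost without any 1 of the DMSO arrays, without replicate 1 or 3 of GDC-0623 and under the shift by hybridization controls (adjusted p of up to 0.117), and that of Ndufaf1 was lost without replicate 3 of DMSO alone (adjusted p = 0.055). The tests of the difference between the times gave -0.25 for Ndufaf1 and -0.33 for Ndufaf7 and did not pass, as for all 8 factors. Ndufaf8, which works with Ndufaf5, differed by -0.12 and -0.16 and was not called.

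**Figure D3:**
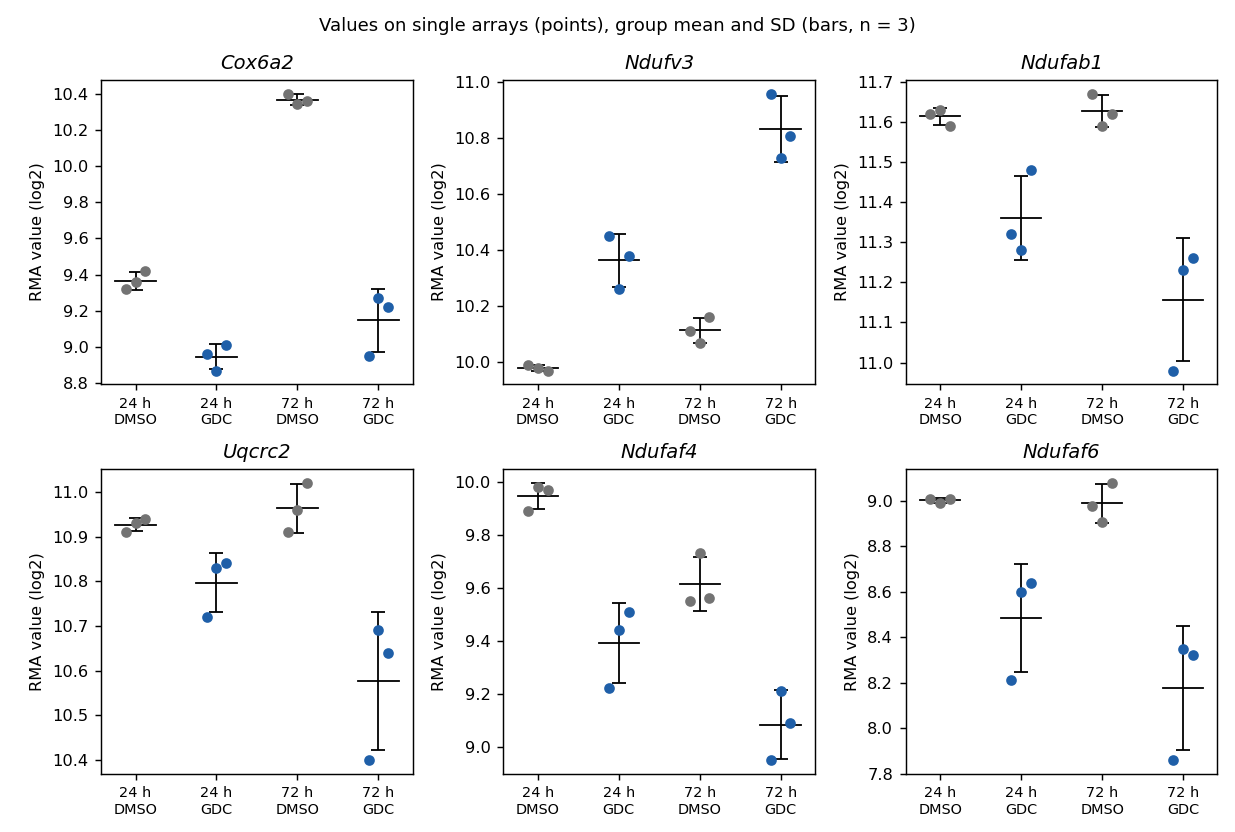
RMA values (log2, vertical axis, scale set per gene and not starting at 0) of 6 genes on single arrays (points) in the 4 groups (horizontal axis), with the group mean and SD of 3 arrays. Ndufv3 is higher and Ndufab1, Uqcrc2, Ndufaf4 and Ndufaf6 are lower in GDC-0623 at 72 h, and Cox6a2 rises with time in DMSO but stays between 8.87 and 9.27 in GDC-0623.

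To show what the start regions of such genes hold, the RefSeq promoter windows (GRCm38.p6, 250 bases before to 50 after the start of each gene) were searched on both strands for letters known from promoters of mitochondrial genes. Of the 90 genes, 16 had no window, among them Cox6a2, Ndufaf6 and Uqcrc2, which were called lower at 72 h. The other 74 had 79 windows in all. The core letters of the NRF1 element, GCATGCGC, stood in 13.9% of these windows, against 2.71% of all 32851 promoter windows and 3.52% of those of protein-coding genes. The YY1 letters AAGATGGC stood in 12.7% against 2.75% and 3.05%, the nuclear receptor letters AAGGTCA in 10.1% against 4.72% and 4.08%, and the ETS letters CCGGAAGT, read also by GABP, in 6.33% against 3.89% and 5.15%, the last close to its share among protein-coding genes. Of 11 genes with the NRF1 letters 3 were called at 72 h, all lower (Ndufaf4, Ndufaf5 and Uqcrc1). Of 10 genes with the YY1 letters 1 was called, Ndufa3, which was higher. At 72 h 12.4% of all genes were called lower and 13.8% higher, and of the bright genes 23.5% and 18.7%. A link between the letters and the calls was not tested. Stretches are shown for Ndufaf4, Ndufaf5 and Uqcrc1. They are also shown for Uqcr11, which holds the NRF1 and the ETS letters and differed by -0.17 and -0.14 without a call. The last is Ndufv3, which rose and whose window holds none of the 4 motifs. Capitals mark the matches, which join into a longer run where they overlap on both strands. The stretches are chr4:24897933-24898082 (plus strand) for Ndufaf4, chr2:140170651-140170680 (plus) for Ndufaf5, chr9:108936668-108936697 (plus) for Uqcrc1, chr10:80406812-80406921 (minus) for Uqcr11 and chr17:31519965-31520114 (plus) for Ndufv3.
Ndufaf4: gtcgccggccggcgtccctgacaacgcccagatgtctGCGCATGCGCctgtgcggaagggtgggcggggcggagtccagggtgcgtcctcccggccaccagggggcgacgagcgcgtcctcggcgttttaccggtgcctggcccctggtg
Ndufaf5: tagtcccgttgGCGCATGCGCctaatagaa
Uqcrc1: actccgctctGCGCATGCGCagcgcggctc
Uqcr11: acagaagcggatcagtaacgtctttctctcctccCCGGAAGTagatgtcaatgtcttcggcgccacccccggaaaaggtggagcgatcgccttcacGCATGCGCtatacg
Ndufv3: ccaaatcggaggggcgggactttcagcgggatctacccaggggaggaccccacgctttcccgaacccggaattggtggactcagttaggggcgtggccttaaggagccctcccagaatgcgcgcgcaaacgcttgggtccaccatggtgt
A match is a description of the letters and not of a bound site.

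Several subunits of complex IV exist as a common form and a form of restricted tissues. Cox6a2, the isoform known from heart and skeletal muscle, was measured well above background and changed most of all 90 genes. It read 9.32, 9.36 and 9.42 in 24 h DMSO, 8.96, 8.87 and 9.01 in 24 h GDC-0623, 10.40, 10.34 and 10.36 in 72 h DMSO and 8.95, 9.27 and 9.22 in 72 h GDC-0623. The 72 h DMSO arrays were thus higher than all others, and the treated arrays of the 2 times overlapped. The drug effect was -0.42 ± 0.07 (adjusted p = 0.0033) at 24 h and -1.22 ± 0.10 (adjusted p = 6.65e-05) at 72 h, or 2.33-fold lower. The difference between these effects was -0.80 ± 0.12 (95% interval -1.05 to -0.55, adjusted p = 0.0024).

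A second, dimmer probe set of Cox6a2 gave the same pattern, with 7.61, 7.59 and 7.52 in 24 h DMSO, 7.19, 7.21 and 7.32 in 24 h GDC-0623, 8.63, 8.59 and 8.81 in 72 h DMSO and 7.08, 7.62 and 7.50 in 72 h GDC-0623. Its drug effects were -0.33 and -1.28, and their difference was -0.94 (adjusted p = 0.0071). The call at 24 h was lost when arrays were shifted by their hybridization controls (adjusted p = 0.144), whereas those at 72 h and of the difference were kept under all alternatives run. Other genes of striated muscle (Ckm, Myh7, Actn2, Tnnt2 and Mb) had means under 6, and their summed log2 level ran from 23.33 to 24.00, from 22.44 to 22.55, from 24.06 to 24.18 and from 21.66 to 22.96 in the same order of groups. Of these 5, Tnnt2 was called lower at both times (-0.95 and -1.30), and the others at neither. Their part in the result was not tested.

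The common partner of Cox6a2, Cox6a1, differed by 0.11 (95% interval -0.04 to 0.26) at 24 h and by 0.10 (-0.07 to 0.26) at 72 h. Of the other restricted isoforms, Cox8c had a mean over 6 and differed by -0.24 and -0.28 without a call, and Cox4i2, Cox6b2, Cox7a1, Cox7b2, Cox8b and Ndufa4l2 had means under 6. Their common partners Cox4i1, Cox6b1, Cox7a2, Cox8a and Ndufa4 all differed by less than 0.10 at both times. Cox7a2l is known as a factor that joins complexes III and IV into supercomplexes, which were not measured here. It read 10.96, 10.95 and 10.92 in 24 h DMSO and 10.68, 10.65 and 10.68 in 24 h GDC-0623, a fall of 0.27 ± 0.06 (adjusted p = 0.016). This call was kept in 9 of 13 alternatives and lost without replicate 1 or 2 of DMSO, without replicate 2 of GDC-0623 and under the shift by hybridization controls, where the difference was -0.12 (adjusted p = 0.591). At 72 h its difference of -0.24 did not pass, and a second probe set was called lower at both times (-0.24 and -0.27).

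The question whether the drug effect differed between 24 h and 72 h was tested directly over all 12 arrays. Of the 90 genes 0 were called higher and 1 lower, Cox6a2, beside 1.62% and 1.46% of all genes, and 7 had an unadjusted p under 0.05. The median of the 90 differences was -0.06, beside -0.06 over the bright genes and -0.01 over all genes. For 71 of the 73 subunits of the complexes the interval of the difference lay within 0.5 of no change. A second, dim probe set of Ndufb8 was higher at 72 h by 0.48 and passed this test with 0.53 (adjusted p = 0.031), while the brightest probe set of Ndufb8 differed by -0.11 at 72 h.

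The passage of time in culture was compared within each medium. From 24 h to 72 h in DMSO, 8.41% of all genes were called higher and 5.14% lower. Of the bright genes these shares were 10.9% and 8.36%. Of the 90 genes 2 were higher and 10 lower (2.22% and 11.11%), with a median of -0.09 against -0.02 in both backgrounds. The rises were those of Cox6a2 (1.00 ± 0.06, adjusted p = 8.46e-05) and Ndufaf3 (0.27 ± 0.07, adjusted p = 0.049), and the latter call was kept in 4 of 13 alternatives and lost without replicate 2 or 3 of 24 h DMSO or any 1 of the 72 h DMSO arrays. The largest falls were in complex I, in the membrane arm subunits Ndufb10 (-0.42) and Ndufb1 (-0.40) and in the iron-sulfur subunit Ndufs7 (-0.42). Ndufs7 read 11.17, 11.15 and 11.22 at 24 h and 10.68, 10.82 and 10.79 at 72 h. Uqcrh fell by 0.36, Sdhd by 0.27 and Uqcr10 by 0.25. The call of Uqcr10 was kept in 3 of 13 alternatives, with values down to -0.13, and lost without any 1 array, and that of Sdhd was kept in 7 and lost without any 1 array but replicate 3 of 72 h DMSO. In complex V 0 of 17 genes were called, with 6 at an unadjusted p under 0.05. Over the 7 alternatives that kept all arrays, 0 to 7 of them were lower, and 3 to 29 of the 73 subunits of complexes I to V.

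In GDC-0623, 5.79% of all genes were higher at 72 h than at 24 h and 3.11% lower. Of the bright genes these shares were 7.71% and 4.67%. Of the 90 genes 1 was higher and 6 were lower (1.11% and 6.67%). Their median was -0.14, against -0.03 for all genes and -0.08 for the bright genes. Ndufv3 rose by 0.47 ± 0.09 (adjusted p = 0.016). The largest falls above background were those of Ndufaf2 (-0.48), Ndufs7 (-0.46) and Ndufb10 (-0.44), and Ndufb4, with -0.53, was read at a mean of 4.38 and 3.85. Ndufaf2, Ndufs7, Ndufb10 and Ndufa5 were called lower with time in both media. In GDC-0623 the calls of Ndufaf2 and Ndufb10 were kept in 8 of 13 alternatives each, that of Ndufa5 in 9, that of Ndufv3 in 10 and that of Ndufs7 in 12, and all 5 were lost without replicate 3 of 24 h GDC-0623. In DMSO those of Ndufaf2, Ndufs7 and Ndufb10 were kept in all 13, and that of Ndufa5 was kept in 8 and lost without any 1 of the 24 h arrays. These comparisons use the same arrays as the drug comparisons, so their values are given side by side without a test. Cox6a2 differed with time by 0.20 (95% interval -0.03 to 0.43) in GDC-0623.

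The 90 genes have 179 probe sets in all, and no gene had probe sets called in opposite directions at either time. Of the probe sets that were not the brightest of their gene, 9 were called at 24 h, all lower, and 15 at 72 h, 13 of them lower. At 72 h they include second probe sets of Ndufb5 (-0.30) and Ndufc2 (-0.27) in complex I, of Sdhd (-0.31), of Uqcrc2 (-0.44), of Cox7c (-0.38, at a mean of 5.04) and, in complex V, of Atp5a1 (-0.35, at a mean of 7.22) and Atp5g2 (-0.35, at a mean of 4.80). At 24 h they include probe sets of Atp5c1 (-0.29), Atp5j2 (-0.26) and Uqcrq (-0.32) with means under 6. The counts by complex given above rest on the brightest probe set of each gene.

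Genes around the chain that the rule did not include were called lower in larger numbers than its subunits. Of 76 mitochondrial ribosomal proteins 25 were lower at 24 h and 38 at 72 h, with 0 higher at either time and medians of -0.17 and -0.27. Mrps6 fell by 0.91 and 0.80, Mrps27 by 0.56 at 24 h, and Mrpl47 and Mrps22 by 0.71 each at 72 h. Of 23 genes of protein import 14 and 13 were lower and 0 higher. Among these, the small carriers of the space between the membranes fell most, with -0.72 and -0.89 for Timm9, -0.62 and -0.79 for Timm10 and -0.61 and -0.89 for Timm8a1. The medians of this list were -0.26 and -0.34. Of all genes 8.23% were lower at 24 h and 12.4% at 72 h, and of the bright genes 14.8% and 23.5%. The counts of these lists were not tested against those of the subunits. With arrays shifted by their hybridization controls, 2 ribosomal proteins and 4 import genes were lower at 24 h, and 27 and 12 at 72 h. At 24 h 13 ribosomal proteins were lower without DMSO replicate 1 or GDC-0623 replicate 1 and 12 without DMSO replicate 2, and at 72 h 24, 21 and 21 without DMSO replicates 1, 2 and 3. Of the import genes, 6, 7 and 6 were lower at 24 h without DMSO replicates 1, 2 and 3, and 6 and 9 without GDC-0623 replicates 1 and 2.

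Of 19 genes that maintain or transcribe mitochondrial DNA, 7 were lower and 1 higher at 24 h and 13 lower and 0 higher at 72 h. The shares of all genes called lower at these times were 8.23% and 12.4%. The helicase Twnk fell by 0.56, the nuclease Mgme1 by 0.53 and the packaging factor Tfam by 0.51 at 24 h. At 72 h the falls were 0.77 for Mgme1, 0.69 for the transcription factor Tfb2m and 0.62 for the RNA-binding protein Lrpprc. Of 14 nuclear regulators of mitochondrial genes 5 and 7 were lower and 0 higher. Myc fell by 0.88 and 1.02, the coactivator Ppargc1b by 0.61 and 0.85, its relative Pprc1 by 0.34 at 24 h, and Gabpb1, a subunit of the ETS factor GABP, by 0.77 at 72 h. Nrf1 itself fell by 0.56 at 72 h (adjusted p = 0.0082). The shift by hybridization controls left 3 genes of the first list and 2 of the second lower at 24 h, and 3 regulators were lower there without replicate 1 or 2 of either group.

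Other lists held calls in both directions. The citric acid cycle and pyruvate dehydrogenase had 2 genes higher and 2 lower of 18 at 24 h (11.11% each). At 72 h 2 were higher and 9 lower. Shares over all genes were 13.3% higher and 8.23% lower at 24 h, and 13.8% and 12.4% at 72 h. Among the bright genes they were 17.4% and 14.8% at 24 h, and 18.7% and 23.5% at 72 h. The counts of these lists were not tested against these shares. Idh2 rose by 0.46 at 24 h and differed by 0.02 at 72 h, Idh3a fell by 0.40 and 0.56, and at 72 h Suclg2 fell by 0.57 and Dlat by 0.55. Of 19 electron carriers and enzymes of ubiquinone synthesis 2 were higher and 4 lower at 24 h (10.5% and 21.1%). At 72 h 2 were higher and 8 lower (10.5% and 42.1%). Coq8b rose by 0.58 and 0.40, and Dhodh, which feeds electrons from pyrimidine synthesis into ubiquinone, fell by 0.48 and 0.62. Cyc1, the cytochrome c1 subunit of complex III that the rule leaves out, differed by -0.20 at 24 h and fell by 0.48 at 72 h (adjusted p = 0.0082). With arrays shifted by their hybridization controls, the 24 h medians of these lists turned from -0.12 to 0.03 and from -0.09 to 0.06, with 3 and 4 genes higher and 0 lower in each. Leaving out 1 array gave 1 to 3 lower cycle genes at 24 h and 6 to 8 at 72 h, with 6 without any DMSO array. For the carriers it gave 0 to 3 lower at 24 h, with 0 without DMSO replicate 3 and 1 without DMSO replicate 1 or replicate 2 of either group, and 5 at 72 h without DMSO replicate 2 or 3.

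The assembly factors of the complexes outside the rule had called shares close to those of all genes at 24 h. Of 38, 5 were higher and 3 lower (13.2% and 7.9%), beside 13.3% and 8.23% of all genes. The bright genes had 17.4% and 14.8%. At 72 h 7 were higher and 8 lower (18.4% and 21.1%). Of all genes 13.8% and 12.4% were then called, and of the bright genes 18.7% and 23.5%. The mean of this list was 8.679 in 24 h DMSO, under the 10.24 at which the bright genes begin. The complex II factor Sdhaf1 fell by 0.31 and 0.66 and the copper chaperone Sco1 by 0.39 and 0.41. The complex IV factor Cox20 rose by 0.37 at 24 h and differed by 0.05 at 72 h, and Cox19 rose by 0.54 at 72 h. With arrays shifted by their hybridization controls the 24 h median turned from -0.05 to 0.10, with 8 higher and 0 lower. At 24 h 1 was higher when replicate 1 of either group, DMSO replicate 2 or GDC-0623 replicate 3 was dropped, and at 72 h 3 and 2 were higher without DMSO replicates 1 and 2. The plot of called shares by list sets these counts beside the subunits and the background.

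**Figure D4:**
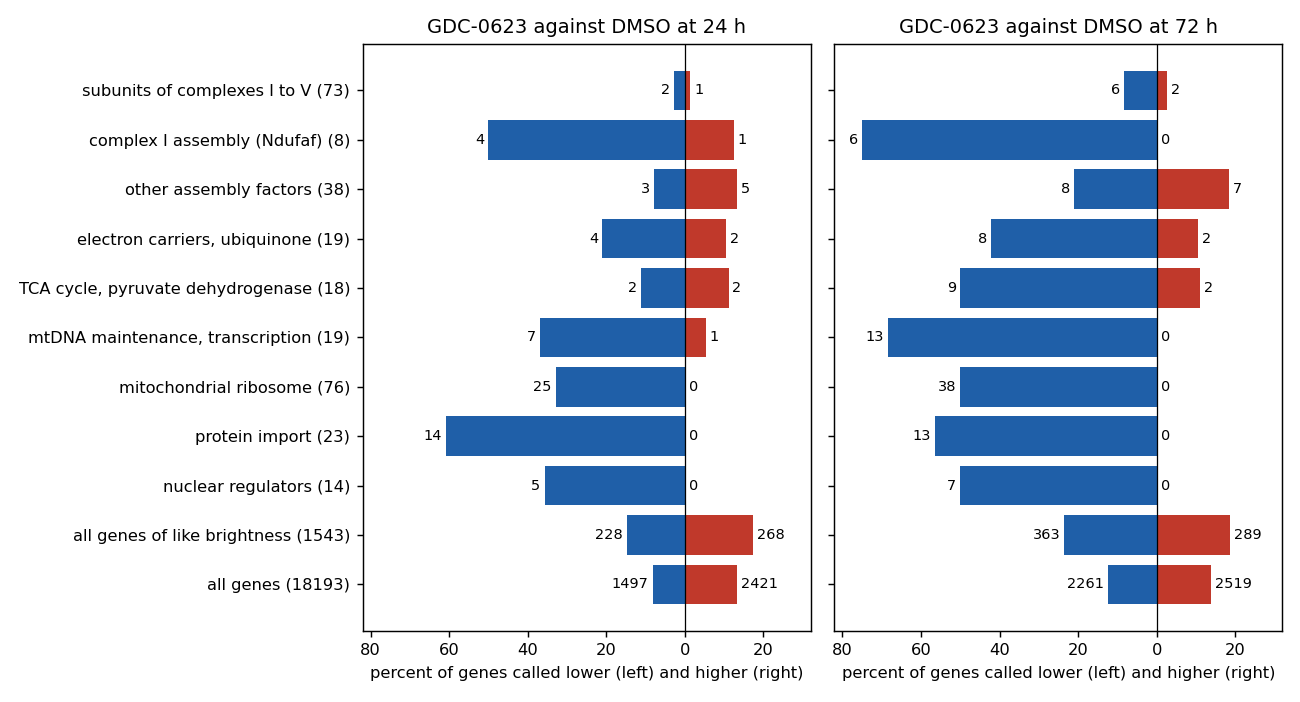
Percent of genes in each list called lower (blue, to the left of 0) and higher (red, to the right) in GDC-0623 against DMSO at 24 h and 72 h (adjusted p under 0.05); list sizes stand in brackets and counts beside the bars. The bars of the subunits of complexes I to V (2 lower at 24 h, 6 at 72 h of 73) are shorter than those of protein import (14 and 13 of 23) and mitochondrial ribosomes (25 and 38 of 76). The row of genes of like brightness holds the 1543 bright genes, with a mean of at least 10.24.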

How the data were processed

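RNA from MC38 cells was hybridized to 12 Affymetrix mouse arrays, 4 groups of 3. The deposited values are log2 intensities that the authors normalized with RMA. The sources used here do not give the RMA version or say whether other arrays entered the normalization. Of 45101 probe sets, 64 controls were left out and 45037 tested. The platform table gave 34945 of them 1 gene symbol, 932 several and 9160 none; the gene identifiers of 34741 matched RefSeq. The 90 genes have 179 single-symbol probe sets, 51 genes have several, and 10 probe sets that name such a gene beside another were left out. No detection calls were used, and 3 arrays a group limit the precision.

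Each comparison was fitted on its 6 arrays with limma 3.58.1 in R 4.3.3 (lmFit and eBayes, two-sided, Benjamini-Hochberg over all tested probe sets, 0.05); the difference of drug effects used 12 arrays. The script was tested on simulated data. Alternatives were 1 fit over 12 arrays, only probe sets at 5 or more on at least 3 arrays, a replicate block, another quantile normalization, a shift by 18 hybridization control probe sets, a trended and robust prior, the mean of a gene's probe sets, and leaving out each array.

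The genes, lists and tests were chosen with earlier results of these data known. Named were, by rule, the up to 4 largest called rises and falls per complex, all called assembly factors and isoform pairs, all of complex II, the 3 largest changes with time, and up to 3 called genes per further list; Cyc1, Nrf1, Pprc1, Cox20, Sdhaf1, Sco1, the 7 complex I factors outside the rule, the unlisted probe set of Ndufb8 and the subunits named without a call were chosen after their values were seen.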

Additional observations from a re-analysis of the deposited data

Results flagged for a closer look

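The drug effect on Cox6a2 differed between the times. The effect at 72 h minus that at 24 h was -0.80 (log2, limma over 12 arrays, adjusted p = 0.0024), lower in 3 of 3 treated arrays than in all 3 controls at each time, and its second probe set gave -0.94.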

How the results depend on the processing

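No call among the 90 genes changed sign under any alternative run. Among uncalled genes the shift by hybridization controls changed the sign of 36 at 24 h, 3 at 72 h, 22 in the difference of drug effects, 10 with time in DMSO and 6 with time in GDC-0623. Counts over the 90 genes moved as follows, higher and lower, from 2 and 8 at 24 h and 2 and 13 at 72 h. Without dim probe sets, 15 were lower at 24 h, 5 higher and 20 lower at 72 h, 26 lower with time in DMSO and 14 lower with time in GDC-0623. With a trended and robust prior there were 5 and 17 at 24 h, 4 and 21 at 72 h, 5 and 32 with time in DMSO and 23 lower with time in GDC-0623. The mean of a gene's probe sets gave 13 lower at 24 h, 17 lower with time in DMSO, and 2 higher and 16 lower with time in GDC-0623. With 1 fit over 12 arrays there were 4 and 21 at 72 h, 1 higher with time in DMSO and 27 lower with time in GDC-0623. Another quantile normalization left 1 higher at 24 h and 1 higher with time in DMSO.

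The shift by hybridization controls moved the median of all genes by 0.151 at 24 h, by -0.140 in the difference of drug effects and by -0.107 with time in GDC-0623. The medians of the 90 genes then became 0.112 at 24 h (from -0.038), -0.198 in the difference of drug effects, -0.059 with time in DMSO and -0.250 with time in GDC-0623. Under it, 2 genes were lower at 24 h, 4 lower with time in DMSO, and 0 higher and 19 lower with time in GDC-0623. The calls over all genes at 24 h became 3407 higher and 416 lower, from 2421 and 1497. The cause was not tested.

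Leaving out 1 array gave 1 to 2 higher and 3 to 10 lower at 24 h (3 without replicate 1 of DMSO) with medians from -0.058 to -0.004, 1 to 2 and 6 to 12 at 72 h (6 without replicate 3 of DMSO, 7 without replicate 2), 1 to 2 and 5 to 8 with time in DMSO, and 0 to 2 and 0 to 3 with time in GDC-0623 (0 lower without replicate 3 of 24 h GDC-0623). Cox6a2 stayed the 1 gene called in the difference of drug effects.

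Deviations of arrays with the same replicate number correlated by 0.014 to 0.289, not all over 0.1 in any comparison, so the numbers were not taken to pair the arrays. The replicate block gave 2 and 6 at 24 h, 2 and 12 at 72 h, 0 and 1 for the difference, 1 and 9 with time in DMSO and 1 and 9 with time in GDC-0623.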
